A study of Mus musculus with 32 samples.

Results

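Whole blood of Scid mice was compared 24 h after 3 Gy of X-rays and 24 h after sham treatment, on 10 of the 32 arrays of a mouse irradiation study. The Scid 3 Gy group held 5 mice and the Scid 0 Gy group 5 mice, chosen by the genotype and dose in their titles, with 1 Agilent 1-colour array per mouse. All were males labelled C57BL/6, and all 10 were labelled Scid, the sham mice as well as the irradiated ones, although the markers of 1 sham library go against that label. Blood was taken by cardiac puncture into an RNA stabiliser, and globin transcripts were depleted before labelling. Wild-type (WT) mice at 8 Gy (n = 5) and 0 Gy (n = 6) and Atm-/- mice at 4 Gy (n = 6) and 0 Gy (n = 5) are used here only for comparison. The labels give each genotype a dose of similar lethality, so genotype and dose change together. Ages are not given in the sources used here.

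The Scid mutation lies in Prkdc, the catalytic subunit of the kinase that holds broken DNA ends for joining. Without it, V(D)J recombination in lymphocyte precursors stalls, and the mice have very few mature B and T cells but retain NK cells, myeloid cells, platelets and red cells. Ionising radiation also stabilises the transcription factor p53 through the kinase ATM, and p53 switches on genes of growth arrest, apoptosis and secreted stress signals. Young red cells (reticulocytes) carry most of the erythroid messenger RNA in blood and come from dividing marrow precursors that are sensitive to radiation.

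The probe of Prkdc was not well above background on any of the 10 Scid arrays, and was so on 1 of 5 WT 8 Gy and 1 of 6 WT 0 Gy arrays, so the mutated gene gives no check of the labels. Between 32.5 and 43.2% of probes were well above background on the Scid 3 Gy arrays, against 25.0 to 47.7% on the Scid 0 Gy arrays, and the number of arrays limits the precision. Levels below are log2 processed signal with the 75th percentile of each array at 0, and changes are differences of group means on that scale with the standard error (SE) from limma. A gene was called at a Benjamini-Hochberg adjusted p under 0.05 over the 15157 genes tested, of which 11399 were detected in a Scid group and 3758 had passed the filter through another genotype only. The labels call the samples individual mice, so the spread is between animals.

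Lymphocyte markers of 3 sham libraries went against their labels. Cd79b, a subunit of the B cell antigen receptor, had 5.41 in the library labelled Scid 0 Gy replicate 4 and -3.37 to -2.25 in the other 4 Scid 0 Gy libraries. Ms4a1 (CD20) and the T cell receptor subunit gene Cd3d were likewise high there, at 3.68 and 3.27. In the libraries labelled WT 0 Gy replicate 3 and replicate 6, Cd79b had -2.38 and -2.81, against 4.03 to 6.37 in the other 4 WT 0 Gy libraries. Gzma, a granule protease of cytotoxic cells, was at 3.61 in Scid 0 Gy replicate 4 and at 6.37 to 6.69 in the other Scid 0 Gy libraries. No library was moved between groups, and counts are given with and without these 3. Scid 0 Gy replicate 5 also stood apart, as the dimmest Scid array (25.0% of probes), with a median correlation of 0.843 with its own group against 0.918 to 0.952 for the other 9 Scid arrays with theirs.

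**Figure D1:**
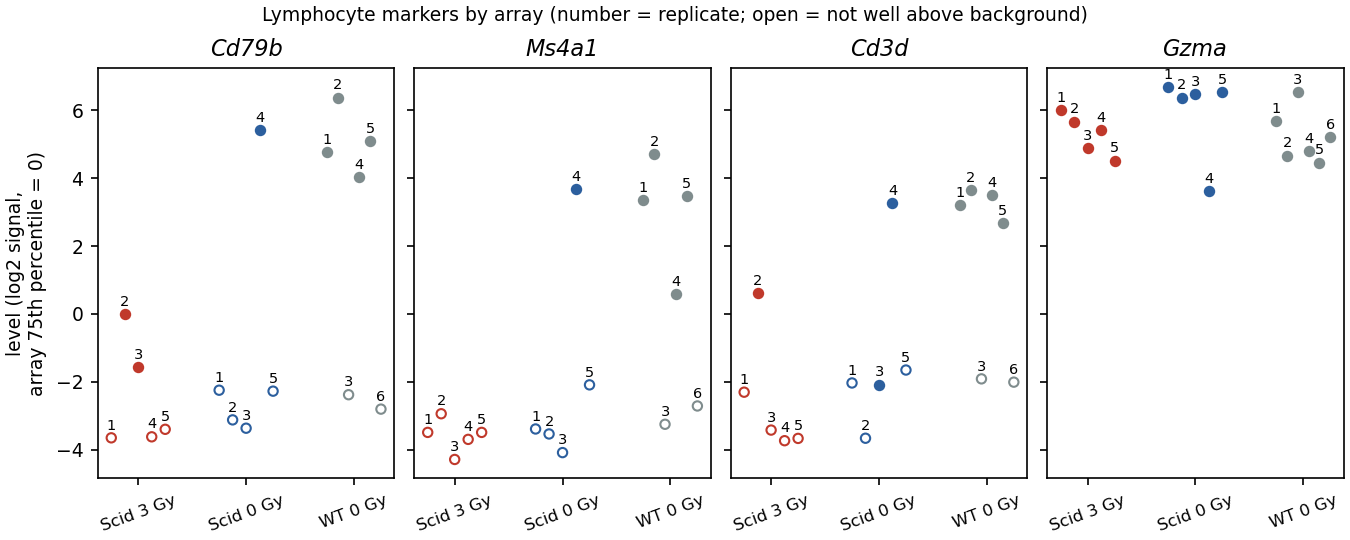
Levels of the B cell genes Cd79b and Ms4a1, the T cell gene Cd3d and the cytotoxic cell gene Gzma on each Scid 3 Gy, Scid 0 Gy and WT 0 Gy array (y axis, log2 signal with the array's 75th percentile at 0). Numbers are replicates and open points are not well above background. Scid 0 Gy replicate 4 lies with the higher WT 0 Gy arrays for the first 3 genes (5.41 for Cd79b), and WT 0 Gy replicates 3 and 6 lie with the other Scid 0 Gy arrays.

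After 3 Gy, 154 genes fell and 9 rose in Scid blood. That is 1.08% of the genes tested, with 1.02% lower and 0.0594% higher. At an unadjusted p under 0.05 there were 1452 genes, 252 higher (1.66%) and 1200 lower (7.92%). The changes of the called genes ran from -2.80 to -0.95 among those that fell (median -1.86) and from 1.24 to 3.69 among those that rose, while the median over all genes was 0.01. The 2 Scid groups did not overlap for 114 of the genes that fell and 7 of those that rose, beside 404 genes (2.67%) over all tested, 335 lower (2.21%) and 69 higher (0.455%). Without the 3 marker-discordant libraries 125 genes were called, 4 higher and 121 lower, 116 of them among the 163. With Scid 0 Gy replicate 5 left out as well, 340 were called, 10 higher and 330 lower, 143 of them among the 163. With normexp background correction 0 genes were called by limma (344 at an unadjusted p under 0.05), and with scaling to spike-in probes 0 (657 at an unadjusted p under 0.05). Here and below, normexp added an offset of 50 to every signal. The 75th percentile signal was 20.2 to 63.8 on Scid 3 Gy and 17.1 to 60.5 on Scid 0 Gy arrays. An offset of that size shrinks the log2 changes of dim probes, so normexp sizes are not on the scale of the main fit.

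**Figure D2:**
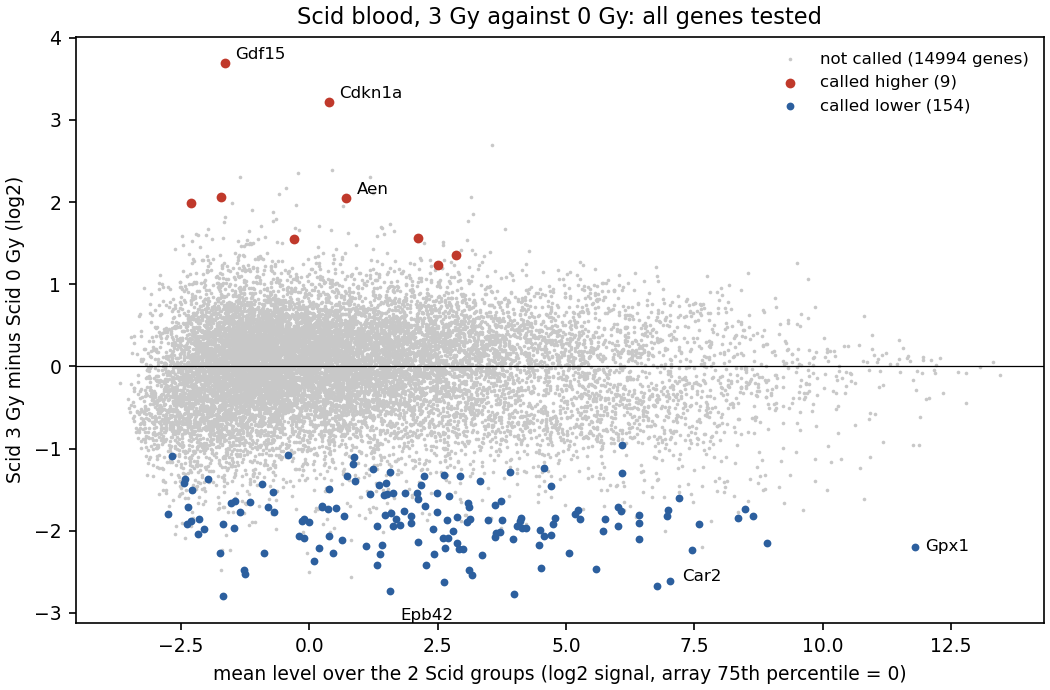
Change of each of the 15157 genes (y axis, log2, Scid 3 Gy minus Scid 0 Gy) against its mean level over the 2 Scid groups (x axis, log2 signal with the array's 75th percentile at 0). Each point is a gene. Red points are the 9 genes called higher and blue points the 154 called lower, with changes from -2.80 to -0.95.

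Targets of p53 held 3 of the 9 genes that rose. Cdkn1a, which encodes the cyclin-dependent kinase inhibitor p21, had levels of 1.26, 0.74, 2.93, 2.38 and 2.63 on the Scid 3 Gy arrays, against -2.50, -1.0, -0.13, -0.26 and -2.25 on the Scid 0 Gy arrays. Every irradiated array was above every sham array, and the probe was well above background on 5 irradiated and 3 sham arrays. Cdkn1a rose by 3.22 (SE 0.54, limma adjusted p = 0.00304) and stayed called without any single Scid array (2.90 to 3.53). Its probe lies at chr17:29237377-29237436 in mouse build mm9. The other kept probe of the gene was 1.11 higher (limma adjusted p = 0.570), and with normexp the main probe was 0.87 higher.

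The response elements of p53 are pairs of short inverted repeats with CATG at the core of each. The 250 bases before the upstream RefSeq start of Cdkn1a (chr17:29090729-29090978, plus strand, GRCm38.p6) are shown because they hold such a pair in a gene that rose, with the letters from the first CATG to the second in capitals.
Cdkn1a: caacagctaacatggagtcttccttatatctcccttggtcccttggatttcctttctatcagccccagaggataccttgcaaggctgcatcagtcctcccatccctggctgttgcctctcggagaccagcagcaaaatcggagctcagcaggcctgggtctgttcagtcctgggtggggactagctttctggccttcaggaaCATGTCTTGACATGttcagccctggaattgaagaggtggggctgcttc
The match to CATGNNNNNNCATG, which reads the same on both strands, begins 48 bases before the start. Of 32851 RefSeq mouse promoters, 161 (0.490%) held these letters in that window, as did 1 of 9 windows of 6 genes that rose, that of Cdkn1a, and 0 of 138 windows of 108 genes that fell. A match is a run of letters and no measured binding.

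Aen, an exonuclease gene of p53-dependent apoptosis, had 1.49, 1.90, 2.11, 1.73 and 1.49 on the Scid 3 Gy arrays, against -0.28, 0.17, 0.02, 0.80 and -2.22 on the Scid 0 Gy arrays. The groups did not overlap and the irradiated arrays lay close together. Aen rose by 2.04 (SE 0.48, limma adjusted p = 0.0262), and its other kept probe rose by 2.26. Dropping any single Scid array gave 1.57 to 2.32, and Aen remained called in 5 of those 10 fits. It was not called with median scaling (limma adjusted p = 0.226), quantile normalization (0.0630), the authors' log2 values (0.252) or the Scid arrays alone (0.121). With slide or scan day as a block it was still called (limma adjusted p = 0.0415 and 0.0116).

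Gdf15, a stress cytokine of the TGF-beta family that acts on the brainstem to suppress appetite, had -0.64, -3.51, 2.16, 1.38 and 1.60 on the Scid 3 Gy arrays, against -3.70, -3.84, -4.49, -2.87 and -2.54 on the Scid 0 Gy arrays. It was well above background on 4 irradiated arrays and no sham array, and Scid 3 Gy replicate 2 lay among the sham arrays. Gdf15 averaged 0.20 ± 2.33 in Scid 3 Gy and -3.49 ± 0.78 in Scid 0 Gy mice (SD, n = 5 each). It was at least 3.64-fold higher (limma adjusted p = 0.0479), where the bound sets each dim array at the higher of its own signal and the lowest signal well above background. Gdf15 remained called in 2 of the 10 fits that dropped 1 array, without Scid 0 Gy replicate 5 or Scid 3 Gy replicate 2. It was not called without the 3 marker-discordant libraries (limma adjusted p = 0.0569) or with median scaling (limma adjusted p = 0.0576).

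Other p53 targets did not pass. Phlda3, a repressor of AKT signalling, had 3.23 to 4.51 on the Scid 3 Gy arrays and 1.88 to 2.79 on the Scid 0 Gy arrays, without overlap (1.86, SE 0.59, limma adjusted p = 0.137). The p53 ubiquitin ligase gene Mdm2 had 2.61 to 3.34 in Scid 3 Gy and 0.53 to 2.54 in Scid 0 Gy mice, where Scid 0 Gy replicate 5 was far below the rest (0.97, SE 0.39, adjusted p = 0.319). The pro-apoptotic genes Bbc3 (PUMA, 1.13) and Bax (0.78), the cyclin G1 gene Ccng1 (1.27) and the zinc finger gene Zmat3 (1.20) had higher means with overlapping groups. The death receptor gene Fas was level (0.02, SE 0.43). Of 23 listed p53 targets in arrest and feedback 1 rose, of 12 in apoptosis 1 rose, and of 26 in metabolism, repair and secreted signals 1 rose (Gdf15) and 1 fell. In the same order, 6, 3 and 11 members had a lower mean in Scid 3 Gy mice and 17, 9 and 15 a higher one. At an unadjusted p under 0.05 by limma, 5, 3 and 3 were higher and 2, 0 and 3 lower. Of the members tested, 16, 8 and 18 were detected in a Scid group, and the others had passed the filter through another genotype only. The list medians, taken over all members tested, were 0.22, 0.54 and 0.19, beside 0.01 for all genes. With scaling to the array median, which moved the median of all genes to -0.21, the first and the third were -0.00 and -0.03. The member that fell was Gpx1, the cytosolic glutathione peroxidase that is also abundant in red cells, with 10.26 to 11.10 in Scid 3 Gy and 12.03 to 13.94 in Scid 0 Gy mice (-2.20, SE 0.41, limma adjusted p = 0.00423).

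**Figure D3:**
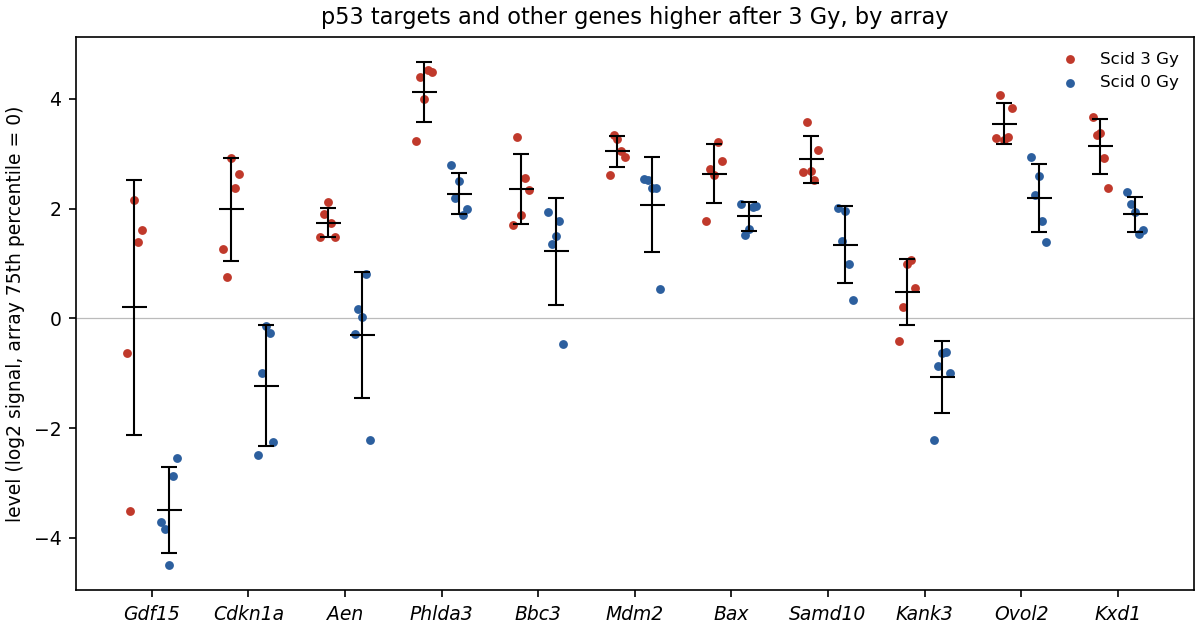
Levels of 7 p53 targets (Gdf15 to Bax) and of Samd10, Kank3, Ovol2 and Kxd1 by array (y axis, log2 signal with the array's 75th percentile at 0). Points are mice, Scid 3 Gy left of Scid 0 Gy for each gene, and bars are mean and SD (n = 5 each). Cdkn1a and Aen do not overlap between groups, while for Gdf15 1 irradiated array, at -3.51, lies among the sham arrays.

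Beside these, 6 genes rose that were in none of the lists. Kank3, of a family of cytoskeletal adaptors, had -0.40 to 1.06 on the Scid 3 Gy arrays and -2.21 to -0.62 on the Scid 0 Gy arrays and rose by 1.55 (SE 0.38, limma adjusted p = 0.0346). It was not called with the mean of its probes (1.15, limma adjusted p = 0.0531) or without Scid 3 Gy replicate 3 (1.42, limma adjusted p = 0.133). Samd10, Ovol2 (a zinc finger repressor of epithelial cells) and Kxd1 (a subunit of the complex that positions lysosomes) were well above background on all 10 arrays and rose by 1.56, 1.36 and 1.24, with no overlap between groups. Their calls were lost without the 3 marker-discordant libraries (limma adjusted p = 0.0874 for Samd10, 0.124 for Ovol2 and 0.0746 for Kxd1). They were also lost without Scid 3 Gy replicate 3 alone (limma adjusted p = 0.0779, 0.0849 and 0.108 in the same order). Pxdc1 and Gm10428, named after their values were seen, were near background. Pxdc1 was well above it on 3 irradiated arrays and no sham array, and Gm10428 on 2 and none.

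Genes of red cells were among those that fell. Of 30 membrane and skeleton genes of red cells tested, 9 fell and none rose, with a median change of -1.20. In bulk blood, fewer red cell precursors and reticulocytes and less messenger RNA per cell cannot be told apart. Epb42 (protein 4.2, which ties band 3 to the skeleton) had 1.07, 0.18, -0.43, -0.47 and 0.66 on the Scid 3 Gy arrays, against 3.34, 4.07, 2.73, 2.57 and 1.97 on the Scid 0 Gy arrays. All irradiated arrays were below all sham arrays. Epb42 fell by 2.73 on the log2 scale (SE 0.50, limma adjusted p = 0.00346, probe at chr2:120844440-120844499 in mm9), and its other probe fell by 2.46. The fall was 3.00 and 2.55 on the 2 slides that held both groups, and 2.55 and 2.42 within the first and second scan days.

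Rhd, of the Rh blood group complex, had 2.11, 1.69, 1.16, 1.62 and 1.71 on the Scid 3 Gy arrays, against 4.57, 4.31, 2.92, 3.21 and 3.72 on the Scid 0 Gy arrays (-2.09, SE 0.49, limma adjusted p = 0.0264). The groups did not overlap, though Rhd was still called in only 5 of the 10 fits that dropped 1 Scid array. Tmod1, which caps actin filaments (-2.06), Trim10 (-1.96), the scaffold gene Mpp1 (-1.91), Rhag (-1.70) and the adhesion gene Icam4 (at least 1.85-fold lower, with means of -2.35 in Scid 3 Gy and -0.69 in Scid 0 Gy mice, and not well above background on any irradiated array) also fell.

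Slc4a1 (band 3, the anion exchanger) had 5.54 to 7.28 on the Scid 3 Gy arrays, against 9.91, 9.90, 8.94, 8.91 and 6.13 on the Scid 0 Gy arrays. Only Scid 0 Gy replicate 5 lay within the irradiated range, and the change of -2.20 (SE 0.64) did not pass (limma adjusted p = 0.0856). Ank1, red cell ankyrin, had -2.51 (SE 0.80, limma adjusted p = 0.141), with the same array at -2.55 and the other sham arrays at 1.69 to 2.87. With the 3 marker-discordant libraries and Scid 0 Gy replicate 5 left out, both passed (limma adjusted p = 0.00803 for each), and 13 of the 30 members fell. Without the 3 alone, 7 fell. The list's median was -0.36 with normexp and between -1.42 and -1.01 with the other scalings.

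GATA1, the master transcription factor of red cells, binds sites with the core GATAA. The upstream windows of Epb42 (chr2:121036878-121037127, minus strand) and Rhd (chr4:134864286-134864535, plus strand), both GRCm38.p6 and written in the direction of the gene, are shown as genes that fell and hold these letters, in capitals on either strand (TTATC is the reverse).
Epb42: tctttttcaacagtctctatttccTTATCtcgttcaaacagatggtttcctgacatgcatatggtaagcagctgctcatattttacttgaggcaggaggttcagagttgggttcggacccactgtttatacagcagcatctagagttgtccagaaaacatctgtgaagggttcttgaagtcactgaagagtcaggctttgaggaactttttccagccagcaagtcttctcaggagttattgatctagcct
Rhd: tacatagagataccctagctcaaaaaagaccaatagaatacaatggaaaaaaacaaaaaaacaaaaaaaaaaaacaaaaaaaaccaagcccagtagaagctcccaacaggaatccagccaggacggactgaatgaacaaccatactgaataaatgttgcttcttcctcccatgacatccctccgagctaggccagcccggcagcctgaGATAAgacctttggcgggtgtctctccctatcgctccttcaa
The letters begin 226 bases before the start of Epb42 and 42 before that of Rhd. Of the 18 members of the red cell lists that fell, 13 had a window in the RefSeq table, and 7 of their 15 windows (46.7%) held GATAA or TTATC. Over all 32851 promoters the share was 22.6%, over the windows of genes tested 16.6%, and over the 138 windows of genes that fell, in a list or not, 18.1%. A further run of letters, CCNCACCC on either strand, was in 2 of the same 15 windows (13.3%). Its share was 17.6% over the windows of genes tested and 18.8% over the 138 windows of genes that fell. No test was made of these differences.

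Haem synthesis and iron genes held 3 that fell of 24, with a median of -0.57 (-0.16 with normexp, -0.79 with median scaling). The count was 3 without the 3 marker-discordant libraries and 4 with Scid 0 Gy replicate 5 left out too. Fam210b, a mitochondrial protein needed for haem synthesis in red cells, had 2.0 to 2.84 on the Scid 3 Gy arrays and 4.23 to 5.26 on the Scid 0 Gy arrays (-2.08, SE 0.38, limma adjusted p = 0.00375). Urod and Uros, enzymes of the porphyrin steps, fell by 1.85 and 1.72, although the other kept probe of Uros was only 0.45 lower. Alas2, the first enzyme of erythroid haem synthesis, was at 11.94 to 13.16 in Scid 3 Gy and 12.01 to 13.38 in Scid 0 Gy mice (-0.07, SE 0.40). Ferritin genes were also level (Ftl1 0.01, Fth1 0.07).

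Among 9 globin-related genes Ahsp, the chaperone of free alpha-globin, fell (-1.86, SE 0.48, limma adjusted p = 0.0479, called in 2 of the 10 fits that dropped 1 array). The globin genes themselves lay between -0.89 (Hbq1a) and 0.07 (Hbb-bs) after depletion, and the list median was -0.12, but 0.01 after quantile normalization and 0.07 where spike-in probes set the scale.

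Of 40 erythroid regulators and enzymes 5 fell, with a median of -0.94. Car2, carbonic anhydrase 2, had 5.06 to 6.32 in Scid 3 Gy and 7.74 to 9.21 in Scid 0 Gy mice (-2.61, SE 0.51, limma adjusted p = 0.0061). Ubac1, Fbxo7 and Rnf123, which serve ubiquitin ligases, fell by 2.27, 1.86 and 1.82 on the log2 scale. Without the 3 marker-discordant libraries 4 members fell, and 12 with Scid 0 Gy replicate 5 left out too. None of 5 transcription factor genes of the lineage passed: the changes were 0.66 for Gata1, 0.89 for Tal1, 1.06 for Gfi1b, 0.45 for Nfe2 and -0.71 for Klf1.

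**Figure D4:**
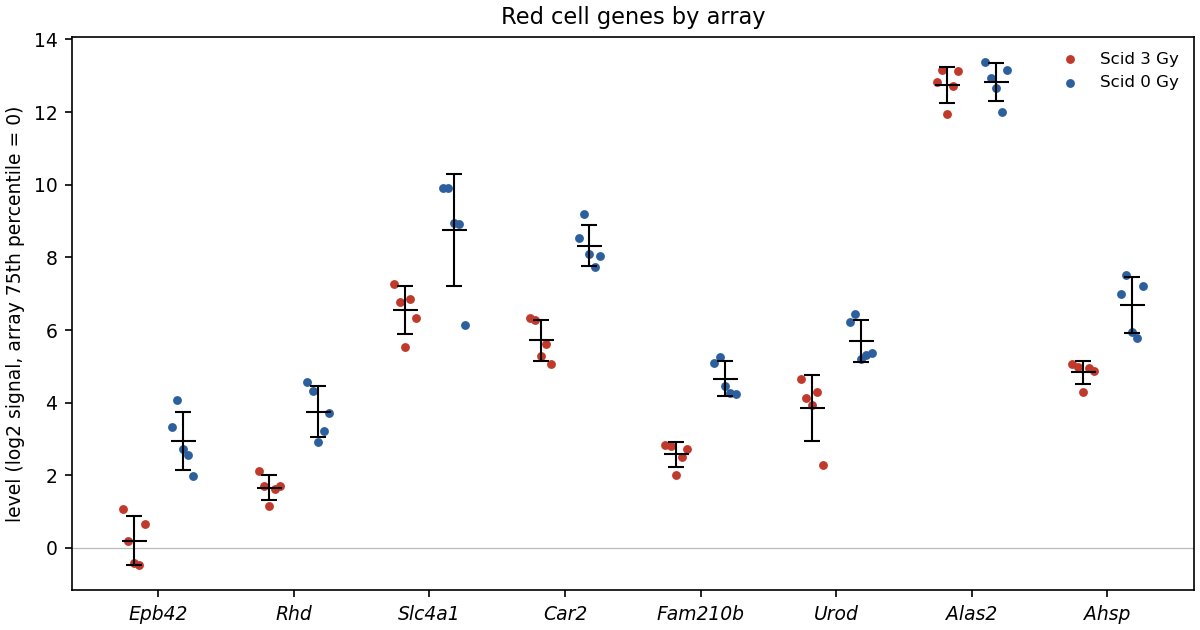
Levels of 8 red cell genes by array (y axis, log2 signal with the array's 75th percentile at 0). Points are mice, Scid 3 Gy left of Scid 0 Gy for each gene, and bars are mean and SD (n = 5 each). Epb42, Rhd, Car2, Fam210b, Urod and Ahsp do not overlap between groups, the lowest sham point of Slc4a1 (6.13) lies within the irradiated range, and Alas2 is level.

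Of the 154 genes that fell, 23 belonged to a list. By the size of their fall among non-overlapping genes the following stood out. Ctse, the aspartic protease cathepsin E, had 1.0 to 2.40 on the Scid 3 Gy arrays and 3.22 to 5.28 on the Scid 0 Gy arrays (-2.54, SE 0.44, limma adjusted p = 0.0032). Rbbp4, a histone chaperone, and Yipf4, a Golgi membrane protein, each fell by 2.47 on the log2 scale, 2700097O09Rik by 2.42 and Acmsd, an enzyme of tryptophan breakdown, by 2.37. Cd36, the scavenger receptor for fatty acids that is also found on erythroid precursors, fell by 2.30 and Ccdc71l by 2.28. Usp45, a deubiquitinase of DNA repair, had -1.20 to -0.16 in Scid 3 Gy and 0.17 to 2.83 in Scid 0 Gy mice (-2.27, SE 0.41, limma adjusted p = 0.00346). P2ry10, a lysophosphatidylserine receptor of lymphocytes and eosinophils, and Fnip2, a partner of folliculin, were not well above background on any irradiated array. P2ry10 was at least 2.92-fold lower (means -2.51 in Scid 3 Gy and -0.03 in Scid 0 Gy mice) and Fnip2 at least 1.99-fold lower (means -2.88 in Scid 3 Gy and -0.60 in Scid 0 Gy mice). In all, 21 of the genes that fell were not well above background on any irradiated array, while 114 were well above it on all 10 arrays.

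Proliferation genes were lower on average. Of 26 mitosis genes 2 fell, and 23 had a lower mean in Scid 3 Gy mice (median -0.59, -0.09 with normexp). The count was 2 without the 3 marker-discordant libraries and 6 with Scid 0 Gy replicate 5 left out too. Nusap1, a spindle protein, had 1.47 to 3.90 on the Scid 3 Gy arrays and 3.43 to 5.78 on the Scid 0 Gy arrays, overlapping through Scid 0 Gy replicate 5 (-2.02, SE 0.47, limma adjusted p = 0.0233). Cenpa, the centromere histone, was also called lower, but only 1 irradiated array and 4 sham arrays were well above background, so the size of its fall is not measured. Ccna2 (cyclin A2, -1.69, limma adjusted p = 0.0519) and Mki67 (the antigen Ki-67, -1.29, adjusted p = 0.256) did not pass, with Scid 0 Gy replicate 5 the lowest sham array of both. Of 32 S-phase genes 0 passed with limma and 8 had an unadjusted p under 0.05. Their median was -0.43, but -0.07 with normexp, and 1 member fell when the 3 marker-discordant libraries and Scid 0 Gy replicate 5 were left out. Of 26 clustered histone genes tested H2bu2 fell (-1.85, SE 0.47), with a list median of -0.12 that turned positive with 3 of the scalings (0.05 with quantile normalization).

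Double-strand break repair and checkpoint genes were not called: 0 of 24 passed with limma, 5 had an unadjusted p under 0.05, and the median was -0.16, or 0.03 with spike-in scaling. The end-joining genes Xrcc6 and Xrcc4 had 0.25 and 0.21.

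Interferon-stimulated genes varied between irradiated mice. Of 45 effectors 0 passed with limma, 3 had an unadjusted p under 0.05, all lower, and the median was 0.06 (-0.16 with median scaling). Of 34 sensors and regulators 0 passed, 2 had an unadjusted p under 0.05, both lower, and the median was -0.16 (0.03 with spike-in scaling). With the 3 marker-discordant libraries and Scid 0 Gy replicate 5 left out, 2 effectors and 0 sensors and regulators were called lower. Ifit3, a cytosolic RNA-binding antiviral protein, had -0.01, 3.86, -0.56, -1.31 and -0.85 on the Scid 3 Gy arrays, against -1.06, -0.75, -1.37, -1.23 and -1.98 on the Scid 0 Gy arrays. Scid 3 Gy replicate 2 was alone at the top for Ifit3 and for Slfn4 (2.72, against -2.74 to -0.11 in the other irradiated mice). The mean level of the effector list was 2.39 in that mouse, 0.43 to 0.90 in the other 4 irradiated mice and 0.52 to 1.25 in Scid 0 Gy mice. Without that mouse Ifit3 was 0.60 higher. It was also the irradiated mouse with the lowest Gdf15 and Cdkn1a, and the dimmest irradiated array (32.5% of probes well above background). Yet its mean level was the highest among irradiated mice for the p53 arrest list (0.29, others -0.19 to 0.27). The same held for the p53 apoptosis list (0.40, others -0.40 to -0.01). For the p53 list of metabolism, repair and secreted signals it was the lowest (0.72, others 0.86 to 1.27). What moved these genes in that mouse was not tested.

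Fewer B and T cell markers were detected in both Scid groups than in WT blood. Cd79b and Cd3d had -3.65 to -0.01 and -3.74 to 0.60 on the Scid 3 Gy arrays, highest in replicate 2. Of 27 B cell markers on the array, 11 were detected on 4 or more Scid 3 Gy arrays and 11 on 4 or more Scid 0 Gy arrays, against 22 in each WT group. Of 27 T cell markers, 13 were detected on 4 or more Scid 3 Gy arrays and 15 on 4 or more Scid 0 Gy arrays, against 25 in each WT group. Cd3e, a CD3 subunit of the T cell receptor, and Cd4, the co-receptor of helper T cells that some dendritic cells also carry, were well above background on all 10 Scid arrays. Cd3e averaged 3.68 ± 0.40 in Scid 3 Gy and 3.78 ± 0.74 in Scid 0 Gy mice (SD, n = 5 each), beside 4.18 ± 0.64 in WT 0 Gy mice (n = 6). Cd4 averaged 5.35 ± 0.22 in Scid 3 Gy and 5.09 ± 0.87 in Scid 0 Gy mice, beside 5.37 ± 0.79 in WT 0 Gy mice. No B marker of 25 tested passed (3 at an unadjusted p under 0.05), no T marker of 26 (5), and no MHC class II gene of 9 (0). The medians were -0.36, -0.26 and -0.53 with all libraries and 0.23, 0.03 and 0.04 without the 3 marker-discordant ones. Cd79a, the partner of Cd79b, had -0.46 to 0.21 on the Scid 3 Gy arrays and -1.31 to 0.05 on the Scid 0 Gy arrays other than replicate 4, which had 3.17. Vpreb3, a gene of early B cells, had -2.99 to -0.72 in Scid 3 Gy and -1.60 to 0.77 in Scid 0 Gy mice (-1.52, SE 0.58, limma adjusted p = 0.287).

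NK cell genes were mostly lower, and none passed. Of 26 tested, 23 had a lower mean in Scid 3 Gy mice (median -0.61, -0.17 with normexp), 4 at an unadjusted p under 0.05. The 4 were the receptor genes Klrk1 (NKG2D, not well above background on any irradiated array), Klrd1 (-1.53) and Klrc1 (-1.38) and the chemokine gene Xcl1 (-1.76). The mean level of the list was 0.49 to 1.21 in Scid 3 Gy mice, against 1.53 to 2.03 in 4 of the Scid 0 Gy mice and 0.41 in replicate 4. Without the 3 marker-discordant libraries the median was -0.99 with 0 members called, and with Scid 0 Gy replicate 5 left out too 1 member was called lower. Perforin (Prf1, -0.23, SE 0.31) and the activating receptor gene Ncr1 (-0.61, SE 0.55) were within the spread between mice.

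Myeloid and platelet markers were not called. Monocyte markers had a median of 0.05, or -0.05 with normexp (0 of 38 passed with limma, 0 at an unadjusted p under 0.05), with Csf1r, the M-CSF receptor, at 0.30 (SE 0.35). Mature neutrophil markers had a median of -0.32, which was -0.03 with normexp and ran from -0.67 to 0.06 over the fits that dropped 1 array. Of 32 tested 0 passed with limma, and 2 had an unadjusted p under 0.05. Those 2 were the calprotectin genes S100a8 (-1.45) and S100a9 (-1.40), whose groups overlapped. Of 32 platelet genes 31 had a higher mean in Scid 3 Gy mice and 0 passed, with 0 at an unadjusted p under 0.05. Their median was 0.58, 0.36 to 0.81 with the other scalings, 0.34 without the 3 marker-discordant libraries and 0.08 when Scid 0 Gy replicate 5 was left out too. The platelet factor 4 gene Pf4 had 10.17 to 11.49 in Scid 3 Gy and 9.73 to 11.28 in Scid 0 Gy mice (0.39, SE 0.51).

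Genes of general cell machinery were slightly lower. Of 43 ribosomal protein genes 42 had a lower mean in Scid 3 Gy mice (median -0.50), of 44 respiratory chain genes 35 (median -0.50) and of 37 proteasome genes 33 (median -0.31). Across these 3 lists Cox7b, a subunit of cytochrome c oxidase, was the 1 member called (5.17 to 5.71 in Scid 3 Gy and 5.93 to 7.58 in Scid 0 Gy mice, -1.30, SE 0.32, limma adjusted p = 0.0391, called in 2 of the 10 fits that dropped 1 array). All 3 medians kept their sign with the other scalings, at -0.12 to -0.71. With the 3 marker-discordant libraries and Scid 0 Gy replicate 5 left out, 3 respiratory chain, 1 proteasome and 0 ribosomal protein genes were called lower.

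Transcripts of other tissues were present. Hepatocyte genes had a median of 0.72 with 0 of 21 called and 0 at an unadjusted p under 0.05, and a mean level of -0.96 to 1.97 in Scid 3 Gy and -1.41 to 0.59 in Scid 0 Gy mice. Albumin (Alb) and Serpina1a were each well above background on 3 Scid 3 Gy arrays and 1 Scid 0 Gy array, and neither passed. Heart muscle genes had a median of -0.65 with 0 of 8 called and 0 at an unadjusted p under 0.05, and ranged from -0.85 to 1.90 in Scid 3 Gy and from -0.67 to 2.89 in Scid 0 Gy mice. Their part in the results was not tested.

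**Figure D5:**
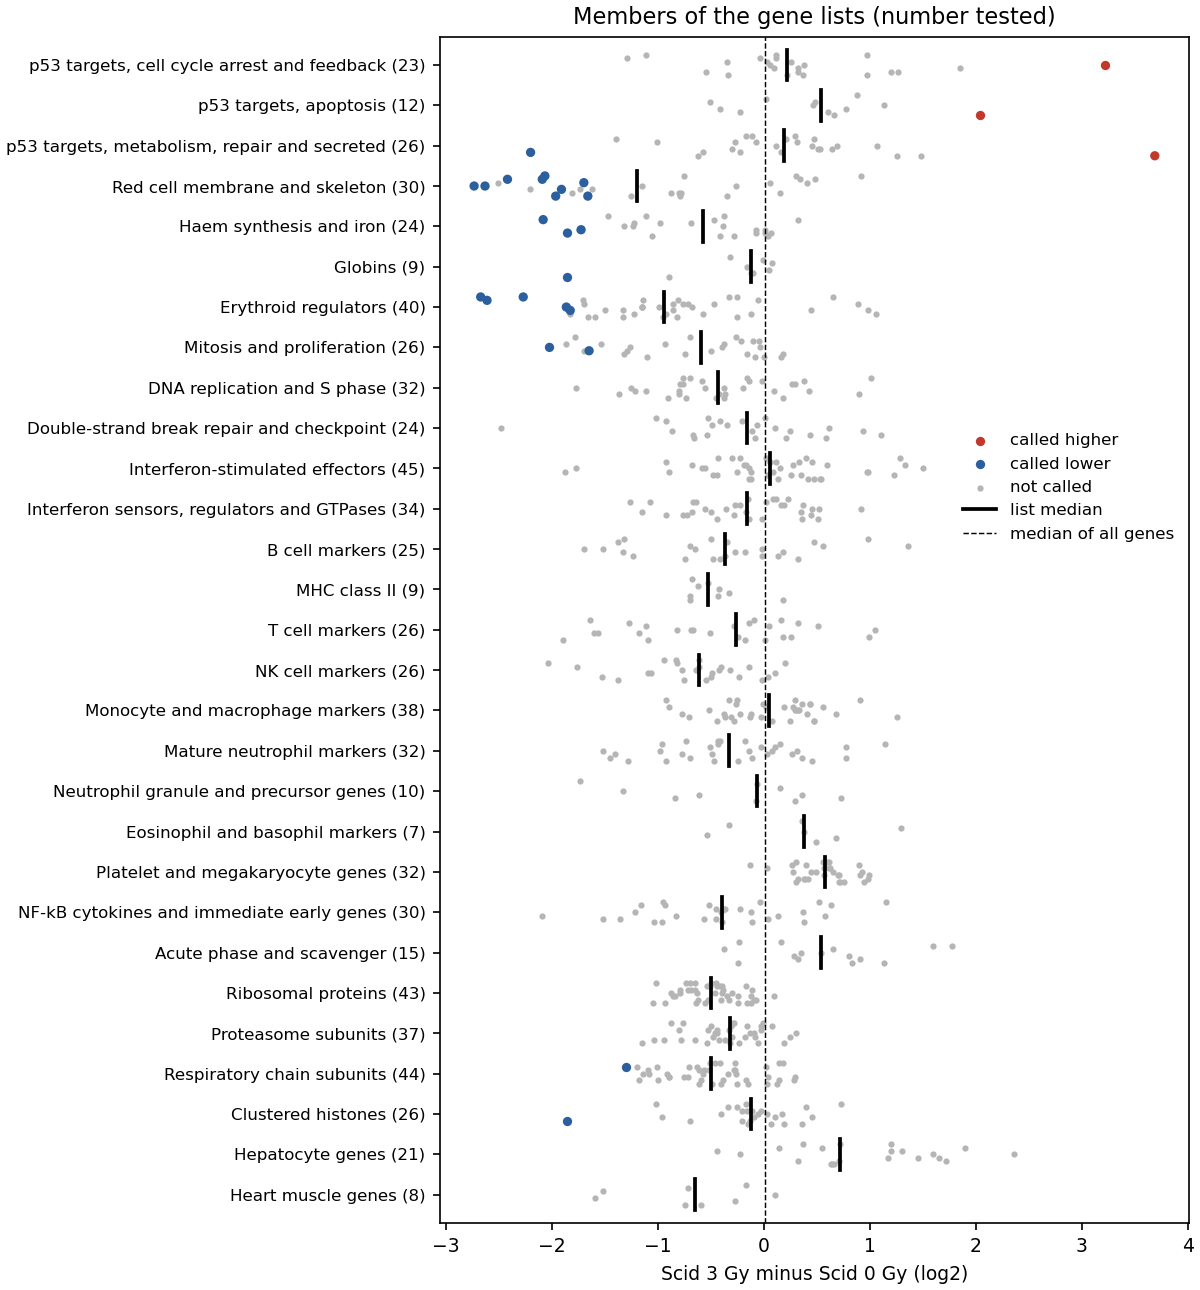
Change of each tested member (x axis, log2, Scid 3 Gy minus Scid 0 Gy) of the 29 gene lists (rows, number tested in brackets). Points are genes, red called higher, blue called lower, and grey not called. Black bars are list medians and the dashed line is the median of all genes, 0.01. Blue points lie mainly in the red cell rows, with medians of -1.20 (membrane and skeleton) and -0.94 (regulators).

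Of the 163 called genes, 161 had a change of the same sign in WT mice at 8 Gy and 160 in Atm-/- mice at 4 Gy. In WT mice 137 were also called against 0 Gy in the same direction, which is 84.0% of the Scid calls and 12.5% of the 1092 WT calls (7.2% of genes tested). In Atm-/- mice at 4 Gy against 0 Gy 14 were, which is 8.59% of the Scid calls and 38.9% of the 36 Atm calls (0.238%). The calls come from the same fit with a shared estimate of spread per gene, so they are not independent between genotypes. The share of all tested genes with the same sign is not given here. The genes that fell had a median of -1.86 in Scid, -2.38 in WT and -1.20 in Atm-/- mice. They were chosen for their fall in Scid mice, which enlarges the Scid median, so these medians do not compare the sizes of response. Cdkn1a changed by 3.22 in Scid, 3.86 in WT and 1.21 in Atm-/- mice, where it was not called (limma adjusted p = 0.316). Epb42 changed by -2.73 in Scid, -4.85 in WT and -2.45 in Atm-/- mice, and Ank1 by -2.51, -6.48 and -2.88 in the same order.

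Tested directly, 0 genes differed between the Scid and WT responses (limma, 1079 at an unadjusted p under 0.05) and 0 between the Scid and Atm-/- responses (639), with smallest adjusted p of 0.141 and 0.978. For Epb42 the Scid response minus that of WT was 2.12 (SE 0.69, limma adjusted p = 0.679). For Cdkn1a it was -0.64 (SE 0.74), and against Atm-/- mice 2.01 (SE 0.74, unadjusted p = 0.0108, limma adjusted p = 1.0). For the interferon genes Oas2 and Slfn4 the difference from WT was -3.09 (SE 1.15) and -2.98 (SE 1.05), each with adjusted p = 0.679 by limma. Without the 3 marker-discordant libraries the change of 8 genes differed from that in WT, and for all 8 it was higher in Scid mice. Among them was the lymphocyte homing receptor gene Ccr7 (0.54 in Scid, -3.64 in WT). Another was Cd8a (0.06 in Scid, -3.35 in WT), well above background on 0 Scid 3 Gy arrays and 1 Scid 0 Gy array. A gene near background in both Scid groups cannot fall there, so its difference from a WT fall says nothing of its response. Those libraries were left out for their lymphocyte markers, so these 8 calls are given as a description.

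Slides and scan days were only partly shared by the groups. Just 2 slides held both, with 1 array of each. The first scan day held 2 irradiated and 4 sham arrays, the second 2 and 1, and the third 1 irradiated and 0 sham arrays. With scan day as a block 69 genes were called, 68 of them among the 163, and with slide as a block 85, 78 of them among the 163.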

How the data were processed

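Per the labels, blood RNA of 32 mice was globin-reduced, labelled with Cy3 and hybridised to 1 array per mouse. The authors deposited scanner tables whose processed signal is an intensity per spot, background-subtracted by Agilent Feature Extraction (12.0.2 per the submitters' processing notes, 11.5.1.1 per the file headers), with probes placed on mm9. The authors also deposited a table of log2 values per array (column medians 5.51 to 6.44). In each column at least 98.1% of values equalled the log2 processed signal, to within 0.01, after a shift by 1 constant. The choice of constant and of probes is unknown, and the table served as an alternative.

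Control spots and outlier spots were left out, spots of a probe averaged, and log2 signals set to each array's 75th percentile. Probes entered if 1 group or more had 4 or more arrays well above background (18367 of 39429), and a gene was represented by its brightest kept probe (15157 genes, 12212 with a RefSeq symbol, assembly GRCm38.p6, otherwise the file's name). Of 43 other kept probes of called genes, 5 had the opposite sign. The 6 group means of all 32 arrays were fitted with limma 3.58.1 in R 4.3.3 (two-sided, Benjamini-Hochberg), after a test on simulated data. Alternatives changed scaling, background correction (normexp with an offset of 50), filters, probes, blocks, weights and arrays. Leaving out the marker-discordant libraries was chosen after seeing the data.

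Members, lists and rules were chosen with earlier results of these data known. Named genes are the called, non-overlapping genes of largest change (up to 15 each way, with a RefSeq symbol), up to 5 called members of each list or otherwise its 2 brightest, and genes always looked up. Other genes are named from list members, for their values. Single values of 3 list members that fell are not reported here. Tables and figures were made in Python 3.11.15 (pandas 2.3.3, matplotlib 3.10.9).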

Additional observations from a re-analysis of the deposited data

Results flagged for a closer look

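In 264 groups of 5 Scid arrays tested for a sample far from the others, 25 had one. Chance gives about 1 in 20 independent groups. These groups are genes and lists on the same 10 arrays, so that rate cannot judge the 25. In 7 of the 25 the sample was Scid 0 Gy replicate 5, the dimmest Scid array. That array was lowest for the red cell genes Slc4a1 (6.13, others 8.91 to 9.91) and Ank1 (-2.55, others 1.69 to 2.87), for the p53 targets Mdm2 (0.53), Bbc3 (-0.48) and Btg1 (3.34), and for the mean levels of the S-phase list (0.10) and the interferon sensor list (-0.15).

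Scid 0 Gy replicate 4, whose lymphocyte markers went against its label, was highest for Cd3d (3.27) and for the mean levels of the B cell (1.54), MHC class II (2.06) and T cell lists (1.88). It was lowest for the NK cell genes Gzma (3.61) and Ncr1 (-2.65). In the other Scid 0 Gy arrays, replicate 1 was lowest for Kank3 (-2.21) and replicate 2 highest for Acmsd (1.98).

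Among the irradiated arrays, Scid 3 Gy replicate 3 was lowest for Cd36 (0.64), Ahsp (4.30), Pf4 (10.17) and the mean level of the globin list (8.48). Scid 3 Gy replicate 2 was highest for Ifit3 (3.86) and for the mean level of the interferon effectors (2.39), and lowest for Fnip2 (-3.14). Scid 3 Gy replicate 5 was lowest for 2700097O09Rik (-1.18) and Cd4 (4.96), and replicate 4 was highest for the heart muscle list (1.90).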

How the results depend on the processing

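All 36 named called genes kept their direction in every alternative that gave them a value, but the number of called genes moved widely from 163 in the Scid comparison. It was 1231 with array weights, 368 with the authors' series matrix, 340 without the 3 marker-discordant libraries and Scid 0 Gy replicate 5, 85 with slide and 69 with scan day as a block, 54 without a filter, 31 with the Scid arrays alone, 7 with normexp without Scid 0 Gy replicate 5, 0 with normexp and 0 with spike-in scaling. Leaving out 1 array gave 43 (Scid 0 Gy replicate 2) to 403 (Scid 0 Gy replicate 5), with 45 without Scid 3 Gy replicate 3, 60 without Scid 0 Gy replicate 1, 71 without Scid 3 Gy replicate 4, 85 without Scid 3 Gy replicate 5 and 106 without Scid 0 Gy replicate 3. The replicate block gave 0 calls on the 10 Scid arrays (1460 at an unadjusted p under 0.05), but same-numbered mice share only a number (correlations of deviations -0.04 to 0.33). Median scaling called 235 genes, 1 of them higher, and the percentile of probes detected on all arrays 180, with 24 higher. The difference from the WT response had 8 genes without the marker-discordant libraries, 11 without Scid 0 Gy replicate 5 as well, 22 with array weights and 0 to 1 with 1 Scid array left out. The difference from the Atm-/- response had 1951 genes with spike-in scaling, all in 1 direction. The causes were not tested. Dim probes limit the fall that can be measured: 21 of the genes that fell were not well above background on any irradiated array.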
